A study of Rattus norvegicus with 12 samples.

Results

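MBNL1, MBNL2 and MBNL3 are zinc finger proteins that bind YGCY-type sites in RNA and govern alternative splicing, polyadenylation, localisation and stability of their targets. They are best known from heart and skeletal muscle, where they drive the change from fetal to adult splice forms, and from myotonic dystrophy, in which expanded repeat RNAs hold them captive. RBPMS is another RNA-binding protein, abundant in differentiated vascular smooth muscle, and a regulator of the splicing programme of that state. The genes described here are those with more RNA after depletion of MBNL1 and MBNL2 in rat PAC1 smooth muscle cells and with little change after depletion of RBPMS. The rule took genes with a mean raw count of at least 200 in MBNL KD, a mean CPM (counts scaled to a library total of 1000000) in MBNL KD at least 2 times that in D1, and a mean CPM in RBPMS KD1 between 0.75 and 1.33 times that in D1. *Mbnl3* was dropped by the rule. It found 169 of the 33294 genes in the count table, and these 169 genes are called the members.

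PAC1 is a rat line of pulmonary artery smooth muscle cells, in which the cells can be kept more differentiated (PAC1-D, split at a dilution of 1:10) or more proliferative (PAC1-P, split at 1:20 and more often). Poly(A) RNA was sequenced from 12 libraries in 4 groups of 3. D1 was PAC1-D with a control siRNA, RBPMS KD1 was PAC1-D with an siRNA against RBPMS, MBNL KD was PAC1-D with siRNAs against MBNL1 and MBNL2 together, and P was PAC1-P with the control siRNA. All 12 received 90 pmol of siRNA by lipofection, in repeated transfections whose intervals the labels and the methods state differently. All groups are of 1 cell line. The study's methods describe the repeats of a condition as independent biological replicates, and p-values measure the spread between such repeats within this experiment. The common coefficient of variation in edgeR was 2.88% in P against D1 and 3.24% in MBNL KD against D1. The study states that the degree of differentiation of PAC1-D cells varies between experiments, a spread that these p-values do not hold. In bulk RNA, fewer cells of a kind and less RNA per cell cannot be told apart.

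The siRNA sense strands are shown because each group of PAC1-D is defined by the one it received, and because MBNL KD carries the only pool. Each is written 5′ to 3′ as the study designed it.
C2, the control in D1 and P: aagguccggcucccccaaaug
RBPMS: ggcggcaaagccgagaaggcgaaca
MBNL1: cacggaauguaaauuugcauu
MBNL2: gaagaguaauugccugcuuuu

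*Mbnl1* was at 330, 330 and 339 CPM in D1 and at 81.1, 81.8 and 84.0 CPM in MBNL KD, which is 24.7% of D1. *Mbnl2* was at 30.8% of D1 in MBNL KD, whereas *Rbpms* was at 86.8% of D1 there and at 25.3% in RBPMS KD1. The targeted genes were thus low in the libraries labelled for them. *Mbnl3*, the third family member and no siRNA target, was at 15.9 ± 0.555 CPM (SD, n = 3) in D1 and at 34.7 ± 1.05 CPM in MBNL KD, and at 73.9 ± 1.28 CPM in P. Total counts lay between 80842635 and 90771289 per library. The lowest total was that of MBNL KD replicate 3, and every other library had at least 86972422. The summed CPM of 18 smooth muscle contractile genes was 15756 to 16248 in D1, 8994 to 9199 in RBPMS KD1, 13733 to 13914 in MBNL KD and 1778 to 1879 in P. Of the markers fixed for other cell types, 4 of 8 endothelial (*Cdh5*, *Kdr*, *Tie1*, *Emcn*), 5 of 8 epithelial and 5 of 12 leukocyte markers (among them *Ptprc*, *Adgre1* and *Itgam*) were at no more than 3 counts in every MBNL KD library. The summed leukocyte markers were at 56.1 to 60.6 CPM in D1 and at 53.2 to 56.2 CPM in MBNL KD. The summed epithelial markers were at 34.3 to 35.8 CPM and at 53.6 to 54.9 CPM, and the endothelial ones at 1.70 to 1.77 CPM and at 2.91 to 3.46 CPM. The 8 fibroblast markers, of which *Tcf21* was at no more than 3 counts, summed to 21657 to 22473 CPM in D1 and 24370.4 to 24884 CPM in MBNL KD, without overlap. Gene by gene that list did not rise, as 0 of 6 tested were called higher, *Dpt* and *Dcn* were called lower, and 2 were higher and 4 lower at an adjusted p under 0.05 alone (edgeR). In RBPMS KD1 the leukocyte markers summed to 83.0 to 85.0 CPM and the fibroblast markers to 29528 to 31111 CPM. The part of these markers in the members' values was not tested.

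One library stood apart from the other libraries of its group. *Rn45s*, the 45S ribosomal RNA precursor, had 169, 171 and 164 CPM in D1, 165, 165 and 177 CPM in RBPMS KD1, 253, 297 and 217 CPM in P and 242, 228 and 2129.6 CPM in MBNL KD. *Rpph1*, the RNA of ribonuclease P, had 0.909, 0.710 and 0.661 CPM in D1 and 0.733, 1.32 and 24.2 CPM in MBNL KD. *LOC102556677* had 1.60, 1.76 and 1.51 CPM in D1 and 1.69, 1.502 and 8.19 CPM in MBNL KD. In all 3, the high value was that of MBNL KD replicate 3 alone, and the other MBNL KD libraries were far under it. Without that library the MBNL KD over D1 ratios of these genes fell from 5.17 to 1.40, from 11.5 to 1.35 and from 2.34 to 0.983. *Chchd6*, *Edn1* and *LOC120099700* also went under a ratio of 2 without it. The rule without this library held 172 genes, 163 of them shared with the 169. Among the 169 members the highest of the MBNL KD libraries was a median of 1.08 times the lowest, and above 1.5 times in 5. The part of MBNL KD replicate 3 in the values of other members was not tested beyond leaving it out.

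**Figure D1:**
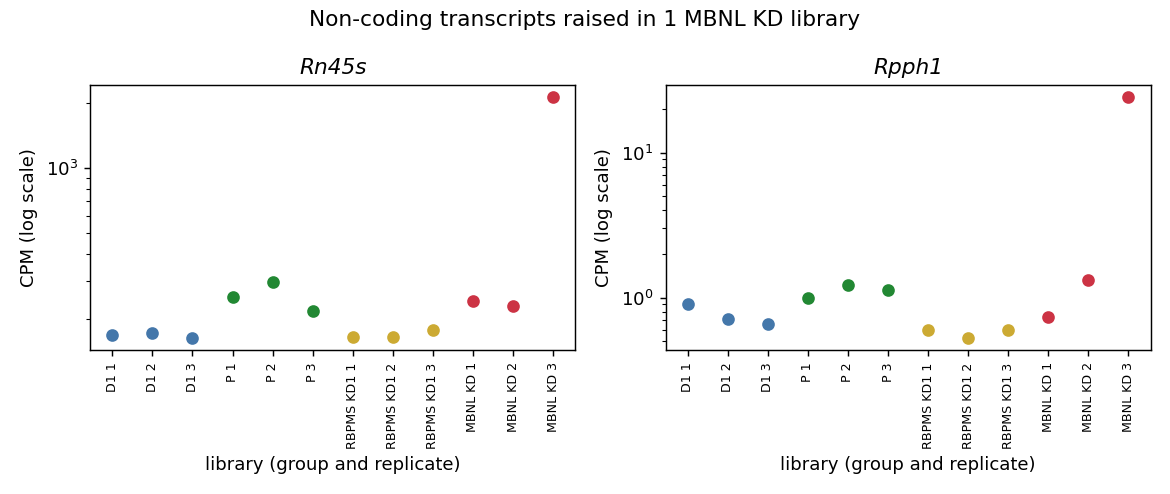
CPM on a log scale (vertical axis) of *Rn45s* and *Rpph1* in each of the 12 libraries (horizontal axis), coloured by group. MBNL KD replicate 3 lies at 2130 CPM for *Rn45s* and 24.2 CPM for *Rpph1*, while all other libraries lie at or under 297 and 1.32 CPM.

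Because the ratios of MBNL KD and of RBPMS KD1 to D1 chose the members, they are given here as a description without a test. Of 11517 genes with the required counts in MBNL KD, 373 had a ratio of at least 2 (3.24%). Of those 373 genes, 172 had an RBPMS KD1 over D1 ratio above 1.33 and 31 had one below 0.75, and 169 were left as members beside *Mbnl3*. The members' MBNL KD over D1 ratios ran from 2.00 to 19.1 with a median of 2.41, with 47 members at 3 or more and 26 at 4 or more. Their RBPMS KD1 over D1 ratios had a median of 1.06, and 111 of 169 lay above 1. In 167 of 169 members every MBNL KD library was above every D1 library, against 44.5% of the 11517 genes, and this too follows from the rule. Members were mostly lower in D1 than other genes, with a median of 4.07 CPM against 33.4 CPM over the 11517 genes, and 89 of them were under 5 CPM there. The count minimum was set in MBNL KD only and a ratio of at least 2 was required, so part of this difference follows from the rule. Summed over the members without *Rn45s*, the libraries reached 6115 to 6206 CPM in D1, 6738 to 6917 CPM in RBPMS KD1, 6378 to 6513 CPM in P and 15600.1 to 15847 CPM in MBNL KD.

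Close to the limits, the rule separated genes with nearly equal values. *Mcrip1*, *Gadd45a* and *Fzd1* were the last inside the MBNL KD limit, at ratios of 2.00, 2.00 and 2.01, and *Glipr2*, *LOC108348385* and *Nupr1* the first outside, at 1.999, 1.99 and 1.99. *LOC102556385*, *Ddx25* and *Adamts9* were just inside the upper RBPMS KD1 limit at 1.325, 1.32 and 1.32, and *Col4a3*, *Unc5c* and *Pck2* just outside at 1.34, 1.34 and 1.34. At the lower limit *Il17b*, *Rpph1* and *Xirp1* were inside at 0.7502, 0.754 and 0.760, and *Crybb1*, *Sptbn4* and *Ccn4* outside at 0.7497, 0.749 and 0.748. *Siglec10*, *LOC120100948* and *Gramd2a* had mean counts of 200, 202 and 212 in MBNL KD, and *LOC120095559*, *Hdc* and *LOC102550168* missed the minimum with 199, 198 and 189.

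A RefSeq table matched 161 of the 169 symbols, 5 of them by a synonym. Of the matched members 140 were protein-coding, 18 were long non-coding RNAs, and 1 each was a ribosomal RNA (*Rn45s*), a small ribozyme RNA (*Rpph1*) and a pseudogene (*LOC102556677*). For description the members were grouped by what their products are known to do. These groups, and the genes named from them that stand in no gene list and are not among the largest or most counted, were chosen after their values were seen.

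The amino acid group held 13 members, with ratios from 2.02 to 10.7 and a median of 2.18. Its genes supply amino acids, charge tRNAs with them, or take part in the response of translation to amino acid shortage. In that response, known as the integrated stress response, kinases phosphorylate eIF2alpha and the transcription factor ATF4 is made in greater amount. ATF4 pairs with C/EBP proteins on C/EBP-ATF response elements, known as CAREs, near genes of amino acid synthesis, import and tRNA charging.

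*Cth* encodes cystathionine gamma-lyase, which makes cysteine, and it had 1.02, 1.04 and 1.15 CPM in D1, 1.03, 0.859 and 0.992 CPM in RBPMS KD1, 11.5, 11.7 and 11.1 CPM in MBNL KD and 9.64, 9.74 and 9.19 CPM in P. *Pycr1*, the last enzyme of proline synthesis, had 13.1, 12.9 and 11.6 CPM in D1, 11.2, 12.6 and 12.4 CPM in RBPMS KD1, 49.3, 49.0 and 48.0 CPM in MBNL KD and 28.7, 29.7 and 27.5 CPM in P. For both genes D1 and RBPMS KD1 overlapped, MBNL KD was the highest group, and P lay between it and D1 without overlap. The transporters of neutral amino acids were *Slc7a5*, *Slc1a4*, *Slc1a5* and *Slc43a1*. *Slc7a5* had 116, 112 and 118 CPM in D1, 236, 245 and 226 CPM in MBNL KD and 192, 207 and 194 CPM in P, and again no P library reached an MBNL KD library. *Slc1a4* had 82.5, 77.4 and 80.8 CPM in D1 and 168, 174 and 164 CPM in MBNL KD, but only 53.1, 53.3 and 54.0 CPM in P, under every D1 library. The ratios of *Slc1a5* and *Slc43a1* were 2.53 and 3.68.

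Synthetases that load tRNAs formed a second set. *Mars1*, for methionine, had 97.3, 94.8 and 95.6 CPM in D1, 102, 105 and 105 CPM in RBPMS KD1, 196, 197 and 188 CPM in MBNL KD and 101, 107 and 98.3 CPM in P. *Eprs*, for glutamate and proline, had 413, 393 and 413 CPM in D1 and 848, 845 and 840.2 CPM in MBNL KD, and *Yars1*, for tyrosine, had 126, 118 and 123 CPM and 249.8, 254 and 247 CPM. Their ratios were close to each other at 2.02, 2.08 and 2.05, and the MBNL KD libraries of each gene differed by little. *Aldh1l2*, a folate enzyme of mitochondria, had a ratio of 2.52. *Eif4ebp1*, whose product holds back cap-dependent translation, had one of 2.19, and the transcription factor gene *Cebpb* one of 2.14. *Chac1*, which encodes an enzyme that breaks down glutathione, was the single member in the list of the unfolded protein and integrated stress response, at 17.3, 15.2 and 15.7 CPM in D1 and 34.5, 36.4 and 34.1 CPM in MBNL KD.

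In that list, the quasi-likelihood test of edgeR, adjusted by Benjamini-Hochberg, called 4 of 23 tested genes higher in MBNL KD and 0 lower, where 6.10% of all 16053 genes tested were called higher and 4.14% lower. A call here means an adjusted p under 0.05 and a log2 fold change beyond 1. The 4 were *Chac1*, *Atf5*, *Trib3* and *Asns*, and the other 3 were no members because RBPMS KD1 was at 1.35, 1.36 and 1.39 times D1. *Asns*, which makes asparagine, rose from 43.8 ± 0.874 CPM to 135 ± 3.30 CPM (SD, n = 3) with a log2 fold change of 1.57 (SE 0.03, edgeR adjusted p = 6.0e-28). *Atf4* itself was at 176 ± 9.80 CPM in D1 and at 334 ± 5.51 CPM in MBNL KD, a log2 fold change of 0.86 (SE 0.03, edgeR adjusted p = 4.6e-21) that missed the fold limit. *Ddit3* had 0.90 on the same scale (SE 0.05, edgeR adjusted p = 8.5e-16), whereas *Hspa5*, the chaperone of the endoplasmic reticulum, had -0.11. With no fold limit 13 of the 23 genes were higher and 9 lower at an adjusted p under 0.05. For each count of 0 calls given here for a list, DESeq2 and limma also made 0 calls. At an unadjusted p under 0.05, 9 of the 23 were lower.

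RefSeq promoters (build GRCr8, 250 bases before to 50 after the start) were matched to 128 members, 10 of them in the amino acid group. The CARE core TGATGNAA, searched on both strands, was present in 5 of those 10 promoters, in 8 of the 128, and in 3.82% of 27457 promoters in the table. In its form TGATGCAA it was present in the same count of 5 of 10, in 6 of 128, and in 0.743% of all promoters. The motif was chosen after the members were seen, so the shares are a description. The 4 matches that lie before the start are printed, with the match in capitals and each stretch 5′ to 3′ in the direction of its gene. *Yars1* is the other gene, with its match at 39 bases after the start.
Pycr1, chr10:106420912-106420967, minus strand: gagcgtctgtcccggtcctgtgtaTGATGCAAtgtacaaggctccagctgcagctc
Chac1, chr3:126795940-126795995, plus strand: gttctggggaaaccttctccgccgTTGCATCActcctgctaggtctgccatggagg
Slc1a4, chr14:98761766-98761812, minus strand: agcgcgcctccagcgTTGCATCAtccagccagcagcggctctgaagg
Mars1, chr7:65023754-65023794, minus strand: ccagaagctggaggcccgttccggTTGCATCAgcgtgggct

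*Pycr1* carries the element on the strand of the gene, and the other 3 carry it on the opposite strand, where it reads TTGCATCA along the gene. Their positions differ, at 131, 167, 235 and 17 bases before the start. The E-box CACGTG was in 4 of the 10 promoters and in 6.65% of all. The AP-1 site TGANTCA was in 0 of the 10, in 6.25% of the 128 and in 7.33% of all. The cyclic AMP response element TGACGTCA was in 2.34% of members and 1.91% of all, the TEAD site CATTCC in 18.0% and 13.9%, and the CArG box in 1.56% and 1.64%. Neither TGANTCA nor TGACGTCA contains the other, and a missing match says only that the letters are not in the window.

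In P against D1, only *Cth* and *Pycr1* of the 13 were called higher and *Slc43a1* was called lower, and 10 were not called, where 16.4% of the 16814 genes tested were called higher and 11.2% lower. The median log2 fold change of the group was -0.08. *Cth* had a log2 fold change of 2.99 (SE 0.10, edgeR adjusted p = 1.1e-23) and *Pycr1* one of 1.03 (SE 0.05, edgeR adjusted p = 9.3e-19). The value of *Pycr1* went just under the fold limit, to 0.97, without D1 replicate 3. *Slc43a1*, at 2.19, 1.76 and 2.34 CPM in D1 and 0.366, 0.460 and 0.457 CPM in P, had -2.46 (SE 0.20, edgeR adjusted p = 4.1e-13).

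The largest named group was that of striated and smooth muscle, with 22 members and ratios from 2.07 to 9.74 (median 2.91). Many of its products belong to the sarcomere, the calcium store or the membrane complexes of muscle, and others, such as the transcription factor *Klf15*, do not. *Casq2* encodes calsequestrin, the calcium buffer of the sarcoplasmic reticulum, and had 26.1, 29.1 and 27.3 CPM in D1, 27.5, 29.8 and 27.3 CPM in RBPMS KD1, 80.4, 76.1 and 79.2 CPM in MBNL KD and 3.12, 2.93 and 2.72 CPM in P. *Ryr2*, the calcium release channel of the same store, had 1.29, 1.33 and 0.915 CPM in D1 and 3.36, 3.69 and 3.38 CPM in MBNL KD. *Trpc6*, a cation channel of the plasma membrane, had 89.2, 89.2 and 92.2 CPM in D1, 72.0, 75.4 and 77.9 CPM in RBPMS KD1, 208, 207 and 202 CPM in MBNL KD and 2.85, 2.74 and 2.62 CPM in P. For each of these 3 genes the MBNL KD libraries were above all others and the P libraries below all others.

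Sarcomere and Z-disc genes were mostly low in D1. *Smpx*, a small protein of striated muscle, had 0.532, 0.832 and 0.716 CPM in D1, 6.84, 6.79 and 6.63 CPM in MBNL KD and 0.0915, 0.0920 and 0.0457 CPM in P. *Xirp1*, which encodes the actin-binding protein Xin, had 1.33, 1.12 and 1.32 CPM in D1 and 8.91, 9.04 and 8.89 CPM in MBNL KD, with RBPMS KD1 overlapping D1 at 1.20, 0.859 and 0.804 CPM. *Tnnc1*, the troponin C of heart and slow muscle, had 1.53, 1.93 and 1.52 CPM in D1, 8.69, 7.93 and 8.93 CPM in MBNL KD and 2.87, 2.75 and 2.47 CPM in P. Their ratios of 9.74, 7.12 and 5.13 rest on D1 values under 2 CPM. *Lrrc39*, a sarcomere protein, had 3.10, 3.31 and 3.95 CPM in D1 and 15.96, 16.7 and 15.8 CPM in MBNL KD. *Speg*, a kinase of the myosin light chain kinase family, had 51.5, 53.3 and 50.9 CPM in D1 and 111, 115 and 110.4 CPM in MBNL KD.

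Adhesion genes of muscle were in the same group. *Itga8*, the alpha8 integrin of smooth muscle, had 5.87, 6.53 and 5.95 CPM in D1, 5.84, 6.02 and 5.96 CPM in RBPMS KD1, 34.0, 36.5 and 34.9 CPM in MBNL KD and 0.698, 0.667 and 0.754 CPM in P. *Ctnna3*, an alpha-catenin of heart muscle junctions, had 4.57, 4.93 and 4.33 CPM in D1, 12.7, 12.5 and 11.9 CPM in MBNL KD and 0.377, 0.414 and 0.480 CPM in P. *Synpo2l*, a Z-disc protein, had 3.01, 3.33 and 2.30 CPM in D1, 8.46, 8.08 and 8.003 CPM in MBNL KD and 0.160, 0.276 and 0.388 CPM in P. All 3 had the order MBNL KD, D1, P with no overlap between the groups.

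Against D1, 16 of the 22 muscle members (72.7%) were called lower in P and 2 higher, *Dusp27* among them, while 4 were not called. These shares stand beside the 11.2% and 16.4% of all genes tested. A fall in P was not particular to the members. The 18 smooth muscle contractile genes, of which only *Itga8* is a member, summed to 15756 to 16248 CPM in D1 and 1778 to 1879 CPM in P. The median log2 fold change of the group was -1.79, and against RBPMS KD1 it was -1.80 with 16 lower and 2 higher, beside 13.0% and 16.1% of all genes tested there. The rule held RBPMS KD1 near D1, so this second reference had to give a like value. *Trpc6* had a log2 fold change of -5.21 (SE 0.05, edgeR adjusted p = 1.0e-39) and *Casq2* one of -3.40 (SE 0.07, edgeR adjusted p = 2.8e-30). *Itga8*, *Ctnna3* and *Synpo2l* fell by 3.28, 3.61 and 3.55 on the log2 scale (SE 0.12, 0.15 and 0.22, edgeR adjusted p at most 5.9e-16). *Tnnc1*, *Lrrc39*, *Asb15* and *Klf15* were the 4 without a call, with log2 fold changes of 0.53, -0.86, -0.11 and 0.86.

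Of the list of embryonic and skeletal muscle genes, 6 of 13 tested were called higher in MBNL KD and 1, *Ckm*, lower, beside 6.10% and 4.14% of all genes tested. *Tnnc1* was the single member among them, and *Myh3*, *Tnnt2*, *Neb*, *Tnnc2* and *Myod1* were no members. *Myh3*, the embryonic myosin heavy chain, was at 2.91 ± 0.706 CPM in D1 and 9.26 ± 1.252 CPM in MBNL KD (SD, n = 3; log2 fold change 1.62, SE 0.12, edgeR adjusted p = 2.2e-13). *Tnnt2*, cardiac troponin T, was at 2.74 ± 0.196 CPM and 8.64 ± 0.629 CPM (log2 fold change 1.60, SE 0.09, edgeR adjusted p = 3.8e-16). In RBPMS KD1 they were at 0.540 and 0.300 times D1, outside the limits of the rule. In the list of smooth muscle contractile genes 3 of 18 were called higher (*Itga8*, *Pln*, *Des*) and 1 lower (*Synpo2*). With no fold limit the balance was the reverse, with 5 higher and 13 lower at an adjusted p under 0.05 (edgeR). The median log2 fold change of that list was -0.14. *Acta2*, smooth muscle actin, was at 4832 ± 167 CPM in D1 and 4227 ± 31.8 CPM in MBNL KD, with a log2 fold change of -0.25 that was not called.

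**Figure D2:**
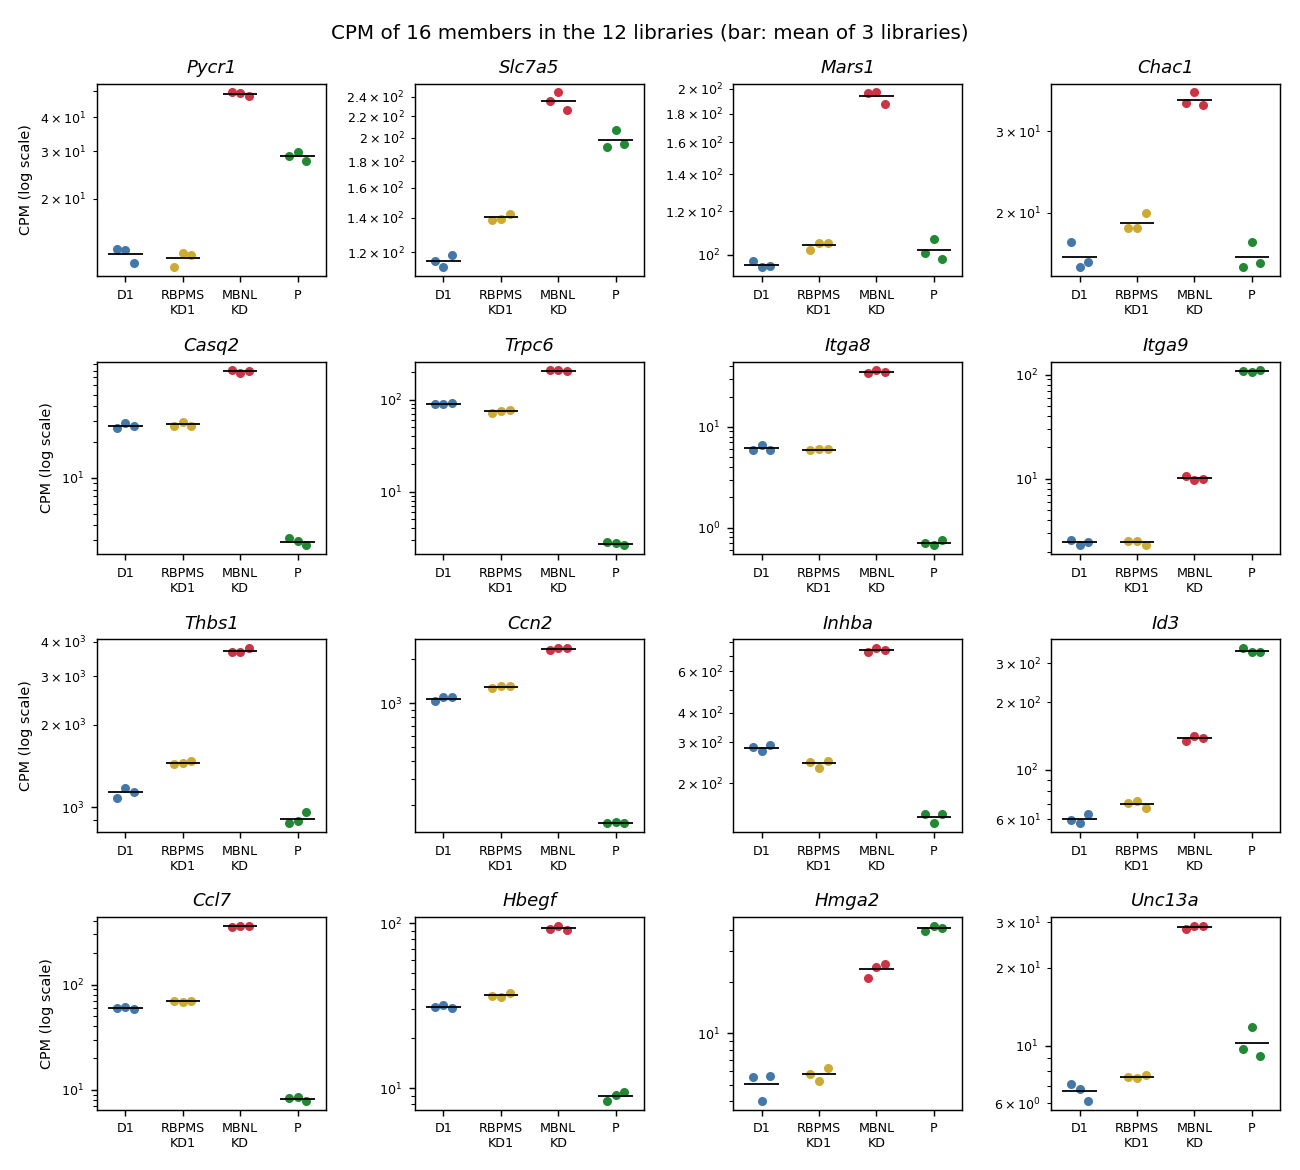
CPM on log scales (vertical axes) of 16 members in the 12 libraries, by group (horizontal axes), with 1 point per library and a bar at the mean of 3. MBNL KD is above D1 and RBPMS KD1 in all 16, while P is the lowest group for *Casq2*, *Trpc6*, *Itga8*, *Thbs1*, *Ccn2*, *Inhba*, *Ccl7* and *Hbegf* and the highest for *Itga9*, *Id3* and *Hmga2*.

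The group of matrix, adhesion and TGF-beta genes held 15 members with ratios from 2.18 to 4.13 (median 2.61). TGF-beta family ligands signal through SMAD proteins, with the activin and TGF-beta branch driving matrix genes such as *Ccn2* and the BMP branch driving the *Id* genes. Among the ligands, *Inhba*, the beta A subunit of activin, had 285, 274 and 291 CPM in D1, 247, 233 and 249.6 CPM in RBPMS KD1, 728, 754 and 742 CPM in MBNL KD and 148, 135 and 149 CPM in P. *Bmp6* had 10.7, 10.2 and 9.77 CPM in D1, 10.9, 10.7 and 10.4 CPM in RBPMS KD1, 28.7, 30.3 and 27.7 CPM in MBNL KD and 81.2, 86.8 and 81.3 CPM in P. The MBNL KD libraries of both ligands were above D1, but P was under D1 for *Inhba* and above MBNL KD for *Bmp6*.

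The *Id* genes encode inhibitors of helix-loop-helix transcription factors. *Id2* had 4.71, 4.87 and 4.97 CPM in D1, 4.08, 3.99 and 4.45 CPM in RBPMS KD1, 14.9, 13.1 and 14.8 CPM in MBNL KD and 65.0, 61.9 and 61.4 CPM in P. *Id3* had 59.4, 57.7 and 63.1 CPM in D1, 71.3, 72.4 and 67.7 CPM in RBPMS KD1, 134, 141 and 139 CPM in MBNL KD and 349.9, 337 and 335 CPM in P. Both followed the order of *Bmp6*, with P the highest. *Id1*, no member because RBPMS KD1 was at 1.78 times D1, was at 4.78 ± 0.202 CPM in D1, 31.9 ± 1.71 CPM in MBNL KD and 39.9 ± 1.31 CPM in P (SD, n = 3).

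Of matrix genes with known TGF-beta response, *Thbs1*, thrombospondin 1, had 1079, 1181 and 1139 CPM in D1, 1433, 1446 and 1480.0 CPM in RBPMS KD1, 3688, 3669.6 and 3797 CPM in MBNL KD and 876, 895 and 959 CPM in P. *Ccn2*, connective tissue growth factor and also a YAP target, had 1037, 1099 and 1096 CPM in D1, 1273, 1312 and 1310.4 CPM in RBPMS KD1, 2323, 2392 and 2383 CPM in MBNL KD and 151, 153 and 149.9 CPM in P. Both were in the first ranks of the members by counts in MBNL KD. Every RBPMS KD1 library of both genes was also above every D1 library, at 1.28 and 1.21 times D1. Other members were so too, such as *Erbb4*, *Igf2bp2*, *Nkd2* and *Cxadr* at 1.28, 1.16, 1.21 and 1.12 times D1. Others, such as *Inhba*, *Id2* and *Trpc6*, had every RBPMS KD1 library under every D1 library, at 0.858, 0.861 and 0.833 times D1.

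*Itga9* encodes the alpha9 integrin and had 2.58, 2.29 and 2.47 CPM in D1, 2.53, 2.53 and 2.30 CPM in RBPMS KD1, 10.6, 9.81 and 9.98 CPM in MBNL KD and 108, 107 and 110.0 CPM in P. *Cd44*, the hyaluronan receptor, had 174, 156 and 165 CPM in D1 and 362, 371 and 362 CPM in MBNL KD. *Cxadr*, a junctional adhesion molecule and virus receptor, had 82.5, 87.3 and 85.6 CPM in D1, 204, 203 and 208 CPM in MBNL KD and 43.3, 45.9 and 42.0 CPM in P. The MBNL KD libraries of these genes were separate from D1 and close to each other. *Mfap4*, a microfibril protein, had 45.3, 46.4 and 42.8 CPM in D1, 99.2, 98.6 and 95.2 CPM in MBNL KD and 1.21, 1.01 and 1.19 CPM in P, so that P was far under the other groups. *Adamts9*, *Col8a1* and *Susd5* had ratios of 3.73, 2.18 and 2.64.

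In P against D1, 5 of the 15 were called higher and 6 lower, beside 16.4% and 11.2% of all genes tested. *Itga9* had the largest rise of all 168 members tested, with a log2 fold change of 5.30 (SE 0.05, edgeR adjusted p = 7.7e-40), and *Mfap4* the largest fall, with -5.47 (SE 0.07, edgeR adjusted p = 6.9e-36). *Bmp6*, *Id2* and *Id3* rose by 2.85, 3.53 and 2.34 on the log2 scale (SE 0.04, 0.05 and 0.03, edgeR adjusted p at most 6.6e-34). *Ccn2* fell by 3.00 (SE 0.03, edgeR adjusted p = 1.3e-39), and *Inhba*, *Cxadr* and *Adamts9* by 1.14, 1.13 and 1.35. *Thbs1*, *Cd44*, *Col8a1* and *Susd5* were not called, at -0.48, -0.22, -0.72 and -0.69.

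In the lists these members come from, MBNL KD against D1 gave 10 of 36 tested genes of the TGF-beta and BMP pathway higher and 2 lower, with 4 members among the 10, where all genes tested gave 6.10% higher and 4.14% lower. It gave 7 of 26 integrins and laminins higher and 0 lower, with *Itga8* and *Itga9* among the members, and 4 were lower at an unadjusted p under 0.05. Among proteoglycans and matricellular proteins 7 of 34 were higher and 1, *Dcn*, lower. Of 18 junctional and immunoglobulin adhesion molecules 5 were higher and 0 lower, and of 27 collagens 3 were higher and 0 lower, with 3 and 8 lower at an unadjusted p under 0.05. Matrix proteases and inhibitors gave 5 higher and 2 lower of 38, and YAP target genes 1 higher, *Ccn2*, and 1 lower of 21. The members were chosen by this contrast, so these counts are not independent of the choice.

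**Figure D3:**
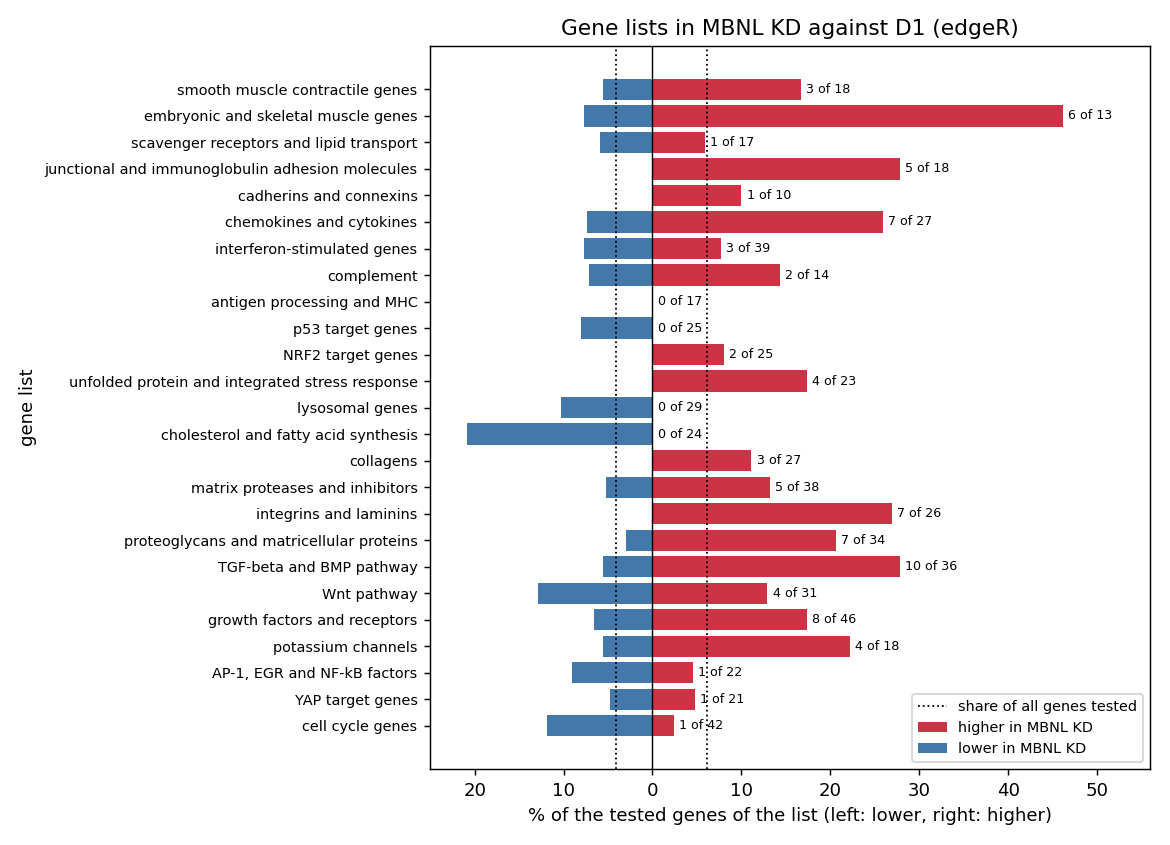
Percent of the tested genes of each list (horizontal axis) that edgeR called higher (right, red) or lower (left, blue) in MBNL KD against D1, for lists with 10 or more tested genes (vertical axis), with the number higher beside each bar. Dotted lines mark the 6.10% and 4.14% of all genes tested, and embryonic and skeletal muscle genes stand highest on the right with 6 of 13, and cholesterol and fatty acid synthesis genes on the left with 5 of 24.

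Secreted signals and their receptors made up a group of 13 members, with ratios from 2.05 to 5.91. *Ccl7*, a chemokine that draws monocytes, had 60.1, 61.5 and 59.1 CPM in D1, 69.2, 68.1 and 70.3 CPM in RBPMS KD1, 351, 360.0 and 358 CPM in MBNL KD and 8.41, 8.46 and 7.80 CPM in P. *Hbegf*, a ligand of the epidermal growth factor receptor family, had 31.0, 31.8 and 30.5 CPM in D1, 36.1, 35.8 and 37.8 CPM in RBPMS KD1, 91.5, 95.9 and 91.1 CPM in MBNL KD and 8.34, 9.03 and 9.47 CPM in P. *Erbb4*, a receptor that binds it, had 2.53, 2.94 and 2.58 CPM in D1, 8.04, 9.11 and 9.61 CPM in MBNL KD and 18.0, 17.7 and 18.7 CPM in P. The ligand and the receptor both had higher MBNL KD libraries, while in P the ligand was the lowest of the groups and the receptor the highest.

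The cytokine genes *Il33* and *Il11* were near 1 CPM in D1, at 1.09, 1.11 and 0.970 and 1.11, 1.46 and 1.09 CPM, and at 3.27, 3.40 and 2.42 and 2.96, 2.63 and 3.19 CPM in MBNL KD. *Edn1*, endothelin 1, had 1.35, 1.33 and 1.18 CPM in D1 and 2.18, 2.89 and 3.39 CPM in MBNL KD, and its ratio of 2.19 was 1.97 without MBNL KD replicate 3. *Ramp3*, a partner of the calcitonin receptor family, had 0.709, 0.599 and 0.838 CPM in D1, 3.04, 2.87 and 2.51 CPM in MBNL KD and 14.9, 14.6 and 15.8 CPM in P. *Lpar1*, a receptor of lysophosphatidic acid, had 4.70, 3.08 and 4.38 CPM in D1, 9.40, 8.53 and 8.82 CPM in MBNL KD and 27.8, 28.2 and 28.3 CPM in P. P was above MBNL KD in every library for *Ramp3* and *Lpar1*.

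Of the 13, 3 (23.1%) were called higher in P against D1 and 5 (38.5%) lower, where all genes tested gave 16.4% and 11.2%. The 3 were the receptor genes *Lpar1* and *Erbb4* and *Ramp3*, whose product is a receptor partner, with log2 fold changes of 2.63, 2.59 and 4.23 (SE 0.08, 0.07 and 0.10, edgeR adjusted p at most 3.4e-25). The 5 were the ligand genes *Ccl7*, *Hbegf*, *Tnfsf18*, *Il17b* and *Il11*, of which *Ccl7* fell by 3.04 (SE 0.04, edgeR adjusted p = 3.8e-34) and *Hbegf* by 1.96 (SE 0.05, edgeR adjusted p = 1.5e-26). Receptors and ligands without a call were *Tnfrsf11b* at -0.53, *Il1rap* at 0.33, *Metrnl* at 0.73, *Edn1* at -0.29 and *Il33* at -0.53. Among chemokines and cytokines of the list, 7 of 27 were higher in MBNL KD than in D1 and 2 lower, with *Ccl7*, *Il11* and *Il33* as the members. Among growth factors and receptors 8 of 46 were higher and 3 lower, the latter near the 4.14% of all genes tested in MBNL KD against D1, of which 6.10% were higher.

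Genes of growth control and transcription were 13, with ratios from 2.00 to 4.66. *Hmga2*, a chromatin protein of embryonic and dividing cells, had 5.56, 4.002 and 5.61 CPM in D1, 5.78, 5.24 and 6.26 CPM in RBPMS KD1, 21.0, 24.5 and 25.3 CPM in MBNL KD and 39.5, 42.3 and 41.1 CPM in P. *Igf2bp2*, an RNA-binding protein gene, had 14.4, 13.7 and 14.7 CPM in D1, 32.1, 31.8 and 33.4 CPM in MBNL KD and 72.7, 74.6 and 72.2 CPM in P. *Etv4*, a transcription factor of the ETS family, had 3.69, 2.88 and 3.48 CPM in D1, 14.0, 13.6 and 12.8 CPM in MBNL KD and 7.49, 7.88 and 6.70 CPM in P. *Hmga2* and *Igf2bp2* were highest in P, and *Etv4* was highest in MBNL KD.

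From the Wnt list, *Ror2*, a receptor for Wnt5a, had 1.64, 0.931 and 1.301 CPM in D1, 2.81, 2.704 and 3.20 CPM in MBNL KD and 28.4, 28.5 and 28.0 CPM in P. *Nkd2*, a feedback inhibitor of the pathway, had 10.4, 10.0 and 9.88 CPM in D1, 28.3, 29.5 and 26.2 CPM in MBNL KD and 4.44, 3.56 and 3.66 CPM in P. *Fzd1*, a Frizzled receptor, had a ratio of 2.01. The 3 went apart in P, where *Ror2* was far above and *Nkd2* under D1. In that list 4 of 31 tested genes were higher in MBNL KD than in D1 and 4 were lower, beside 6.10% and 4.14% of all genes tested. The 4 lower were *Axin2*, *Wnt5a*, *Wnt4* and *Rspo2*, so the ligand of *Ror2* named above was among them. *Pmaip1*, the p53 target Noxa, had a ratio of 2.03 and was the single member in the p53 list, of which 0 of 25 were called higher and 2 lower by edgeR, with 17 higher at an unadjusted p under 0.05.

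In P against D1, 4 of these 13 (30.8%) were called higher and 2 (15.4%) lower, the latter near the 11.2% of all genes tested, of which 16.4% were higher. *Ror2* rose by 4.29 (SE 0.09, edgeR adjusted p = 9.7e-30), *Hmga2* by 2.85 (SE 0.07, edgeR adjusted p = 7.2e-28), *Igf2bp2* by 2.19 and *Pmaip1* by 1.47 on the log2 scale. *Nkd2* and *Gadd45a* fell by 1.54 and 1.05. *Etv4* was not called at 0.97 (SE 0.09, edgeR adjusted p = 3.1e-11), and reached 1.03 without D1 replicate 1 and 1.03 without P replicate 3. *Trib2*, *Fzd1*, *Dusp6*, *Phlda1*, *Maff* and *Sox6* were the other members without a call.

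A group of 10 members are best known from the nervous system, and their ratios ran from 2.07 to 8.23 with a median of 3.86. *Unc13a*, which primes synaptic vesicles for release, had 7.14, 6.81 and 6.13 CPM in D1, 7.59, 7.50 and 7.69 CPM in RBPMS KD1, 28.2, 28.9 and 29.0 CPM in MBNL KD and 9.72, 11.8 and 9.11 CPM in P. *Celf3*, an RNA-binding protein of the CELF family, had 0.598, 0.399 and 0.507 CPM in D1, 3.86, 4.03 and 4.26 CPM in MBNL KD and 0.400, 0.586 and 0.617 CPM in P. *Nalcn*, a sodium leak channel, had 0.443, 0.632 and 0.397 CPM in D1 and 4.29, 4.35 and 3.48 CPM in MBNL KD. The MBNL KD libraries of each were far above all others, and *Celf3* and *Nalcn* were under 1 CPM in D1. *Tmeff1* and *Robo2*, a guidance receptor, had ratios of 8.23 and 3.43. In P 8 of the 10 were not called against D1, *Olfm2* was called higher at 1.47 (SE 0.13, edgeR adjusted p = 2.9e-12) and *Nalcn* lower at -1.52 (SE 0.36, edgeR adjusted p = 3.1e-04). The median of the group was -0.11, and 1 of 10 in each direction is near the 16.4% higher and 11.2% lower of all genes tested. The 9 markers fixed for neural cells summed to 6.44 to 7.23 CPM in D1 and to 3.72 to 4.61 CPM in MBNL KD, with *Elavl4* and *Sox10* at no more than 3 counts in every MBNL KD library.

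Non-coding genes and 1 pseudogene numbered 21, *Rn45s*, *Rpph1* and *LOC102556677* among them. *LOC120096656* had the largest ratio of all members, 19.1, with 0.709, 0.710 and 0.727 CPM in D1, 0.993, 0.551 and 0.870 CPM in RBPMS KD1, 12.1, 14.3 and 14.6 CPM in MBNL KD and 6.18, 7.63 and 6.06 CPM in P. The MBNL KD libraries were at least 12.1 CPM and the P libraries lay between them and D1. It rose in P against D1 with a log2 fold change of 3.04 (SE 0.13, edgeR adjusted p = 1.4e-20). Of the 21, 3 (14.3%) were called higher in P, near the 16.4% of all genes tested, 5 (23.8%) lower against 11.2%, and 13 not. The strand setting of the counting is not given in the sources used here, so that reads of a non-coding gene and of a gene on the other strand cannot be told apart.

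The other 62 members had ratios from 2.00 to 16.1 with a median of 2.28. *Rasgrp2*, an exchange factor for Rap1, had 4.97, 5.68 and 4.65 CPM in D1, 17.6, 17.4 and 18.1 CPM in MBNL KD and 18.0, 19.4 and 19.1 CPM in P, with MBNL KD and P overlapping. *Hhla2*, the only member with a library at 0, had 0.244, 0.233 and 0.110 CPM in D1, 2.76, 3.02 and 3.67 CPM in MBNL KD and 0.0457, 0.0460 and 0 CPM in P. It passed no count filter in P against D1 and was the 1 member not tested there. From the lists, *Gstm1*, an NRF2 target, had 33.1, 33.0 and 29.4 CPM in D1 and 65.9, 69.8 and 68.6 CPM in MBNL KD, and the potassium channel genes *Kcnt2* and *Kcnab1* had ratios of 2.44 and 2.17. In the potassium channel list 4 of 18 were called higher in MBNL KD and 1 lower, and in the NRF2 list 2 of 25 higher and 0 lower, with 12 lower at an unadjusted p under 0.05. Over all genes tested in MBNL KD against D1, 6.10% were higher and 4.14% lower, and the NRF2 share and the potassium channel share called lower are near these. *Gstm1*, *Slfn4* and *Tmsb15b2* belong to families of near-identical genes, and the counting could have split their reads. Of 61 tested in P against D1, 16 (26.2%) were called higher and 9 (14.8%) lower, where all genes tested gave 16.4% and 11.2%.

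**Figure D4:**
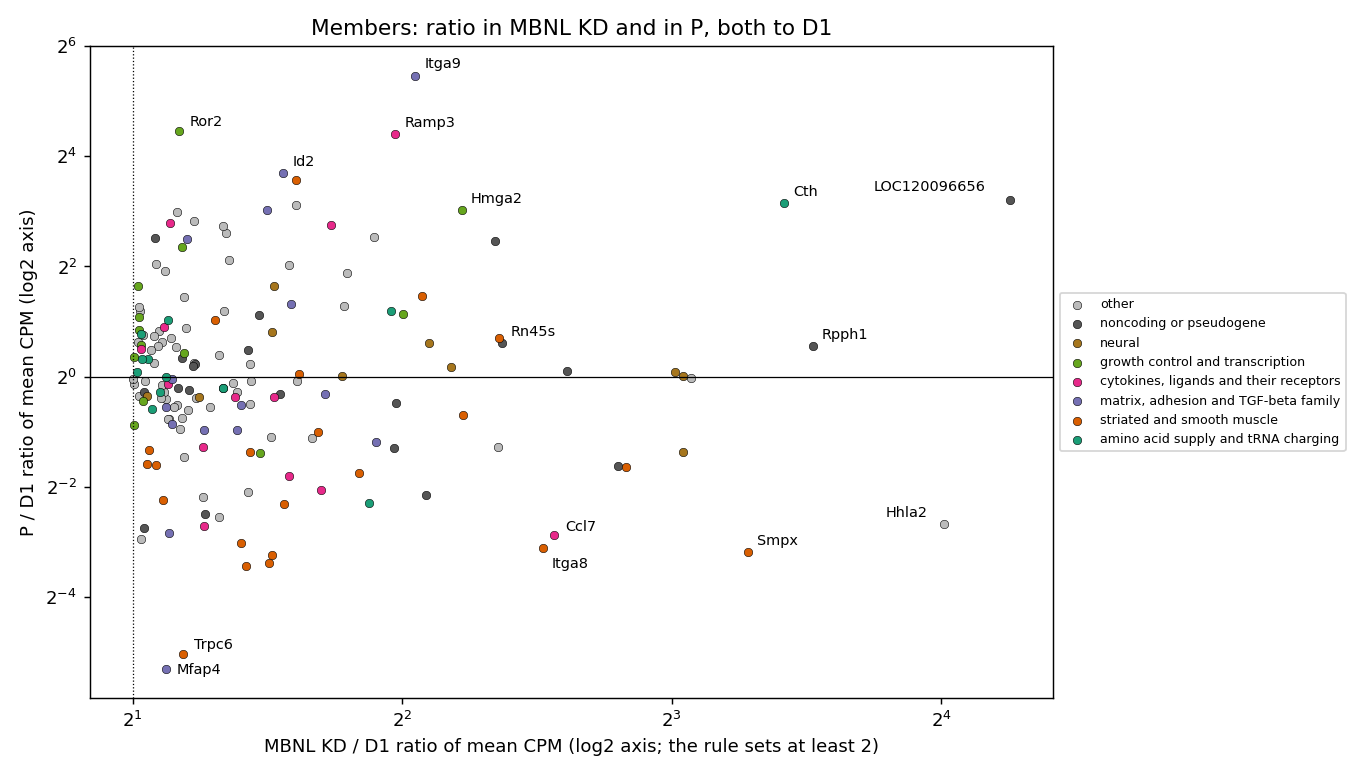
Ratio of mean CPM in MBNL KD to D1 (horizontal, log2 axis) against the ratio in P to D1 (vertical, log2 axis) for the 169 members, coloured by role. Both axes share D1, the dotted line marks the limit of the rule at 2, and members lie on both sides of equality in P, from *Itga9* at the top to *Mfap4* at the bottom.

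Following all members into P answers whether they also differ between the proliferative and the differentiated state. Of the 168 tested, edgeR called 36 (21.4%) higher in P than in D1, 45 (26.8%) lower and 87 neither way, where all 16814 genes tested gave 16.4% higher and 11.2% lower. The median log2 fold change of the members was -0.23, against 0.02 over all genes, and 50 members lay within 0.5 of 0. The D1 libraries entered both this comparison and the rule. In P the summed endothelial markers were at 15.9 to 16.6 CPM, the epithelial ones at 85.9 to 89.7 CPM and the fibroblast ones at 26458 to 28535 CPM, all above D1. The neural markers, at 4.53 to 5.48 CPM, and the leukocyte markers, at 53.3 to 56.02 CPM, were under D1. The part of these markers in the calls was not tested. With RBPMS KD1 as the reference, 33 of 169 were called higher and 48 lower, beside 16.1% and 13.0% of 16899 genes. RBPMS KD1 entered the rule too, within 0.75 to 1.33 times D1 in every member, and the P libraries are the same, so that both references had to give like values and the second is no independent check. Under quantile normalization the split in P against D1 became 31 higher and 53 lower among the members, and the share of higher among all called genes went from 59.4% to 45.2%. In P against RBPMS KD1 it became 31 and 53 likewise, and 55.4% became 44.7% over all genes.

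The edgeR fold changes use library sizes scaled by TMM, the trimmed mean of M values, and in P against D1 they were a median of 0.17 on the log2 scale under the log2 ratios of CPM over the members. In MBNL KD against D1 the same gap was 0.05 over list genes. P and MBNL KD can be set side by side in CPM. In 25 of the 169 members every P library was above every MBNL KD library, and in 134 every P library was under every MBNL KD library, beside 50.2% and 38.6% of the 11517 genes. MBNL KD chose the members for high values, so this is a description. All of those 25 were among the 36 called higher in P against D1, and 6 more of the 36 had every P library under every MBNL KD library. The median ratio of P to MBNL KD was 0.360.

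**Figure D5:**
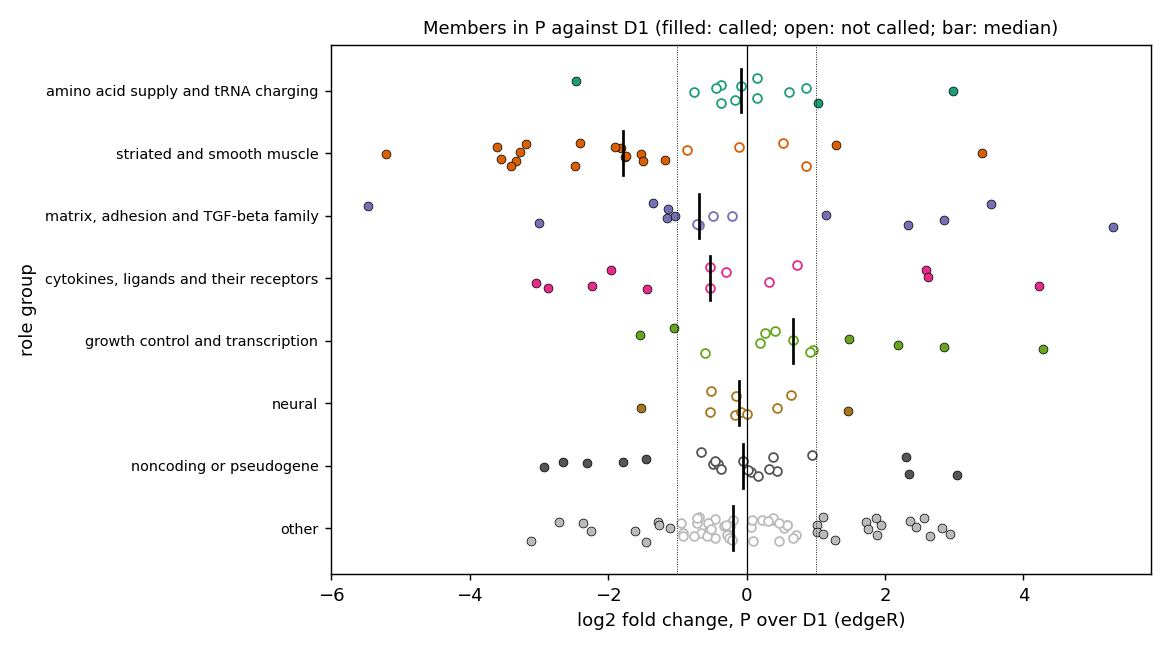
log2 fold change of P over D1 from edgeR (horizontal axis) for the 168 members tested, in rows by role group, with filled points for called members, open points for others, and a bar at the median. The median of the striated and smooth muscle group is -1.79, and those of the amino acid and neural groups are -0.08 and -0.11.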

How the data were processed

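RNA of 12 libraries of PAC1 cells was measured by poly(A) RNA-seq. The authors subsampled the paired reads to a common depth, aligned them with STAR 2.7.11b to mRatBN7.2 per the submitters' processing notes and the study's methods, and deposited raw counts per gene from featureCounts. They also deposited a table of signal values after noisyR noise removal and quantile normalization, which was used only in alternatives. The strand setting of the counting is not given in the sources used here.

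Membership was computed from CPM with total counts. P was tested against D1 and against RBPMS KD1, and list genes in MBNL KD against D1, each with 6 libraries, by edgeR 4.0.16 (quasi-likelihood test, TMM, filterByExpr, R 4.3.3) with Benjamini-Hochberg adjustment over all genes tested, and called at an adjusted p under 0.05 and a log2 fold change beyond 1. Simulated counts with 200 changed genes tested the scripts. Alternatives used DESeq2 1.42.0, limma 3.58.1, other scalings, filters and rule limits, a replicate block and each library left out. Same-numbered libraries did not deviate together (correlations -0.0227 to 0.0260).

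Members and gene lists were chosen with earlier results of these data known. Named genes were members with the largest ratios, the most counts, or the largest changes in P, all members in a list, those next to a limit of the rule, and any with a library at 0. Totals of 80842635 to 90771289 counts make 3 counts equal to 0.0331 to 0.0371 CPM, and such limits cover counting error only. Some members are not reported here.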

Additional observations from a re-analysis of the deposited data

How the results depend on the processing

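Counts of calls moved by over 1.5 times only without the fold threshold, which gave 153 members called in P against D1 (66 higher, 87 lower), 157 in P against RBPMS KD1 (66 higher, 91 lower) and 533 list genes in MBNL KD against D1, where the fold threshold gave 81, 81 and 129. Leaving out 1 library gave 80 to 83 members called in P against D1 (34 to 36 higher, 45 to 47 lower), 80 to 83 in P against RBPMS KD1 (32 to 35 higher, 46 to 50 lower), 123 to 134 list genes and 162 to 176 members. The replicate block left 81, 81 and 129 calls, and the replicate numbers did not pair the libraries. limma on the log2 of the authors' normalised values called 72, 74 and 95.

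Membership rested on the limits chosen. TMM-scaled CPM gave 147 members, 143 of them among the 169, and the authors' normalised values gave 143, of which 121 were. A minimum of 100 or 500 counts gave 215 or 118, and a narrower or wider RBPMS KD1 window gave 138 or 224. The rule without MBNL KD replicate 3, tried after seeing the data, gave 36 higher and 47 lower in P against D1. Of 660 values for 55 named genes under alternatives, 646 kept their direction and their side of the threshold, 8 lost a call, 6 gained one and 0 reversed. Counting error bears most on members with low counts in D1, such as *Hhla2* with a mean of 17.7 counts there. Many of the largest ratios belong to such members. *Siglec10*, *Tmeff1*, *Nalcn* and *Smpx*, for example, had means of 24.7, 43, 44.3 and 62.7 counts in D1.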
